A study of Bos taurus and Mus musculus with 16 samples.

Results

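The 9 genes described here encode parts of the tight junction, and all 9 were found by symbol both among the 16655 genes of a mouse table and among the 14852 genes of a bovine table. They are Tjp1, Tjp3 and Cgn, which encode scaffold proteins of the junction plaque, Ocln and Marveld2, which encode membrane proteins of the MARVEL family, the claudin genes Cldn4, Cldn6 and Cldn7, and F11r, which encodes the junctional adhesion molecule JAM-A. Polyadenylated RNA of whole embryos was sequenced from 16 samples in 4 groups. Tead4-edited mouse embryos received, as zygotes, mRNA of the cytosine base editor BE3 (a deaminase fused to a nicking form of Cas9) together with a mix of sgRNAs (guide RNAs) against Tead4, and were collected as morulae on day 3.25 after fertilization (n = 2). Control mouse morulae of the same day came from zygotes given BE3 mRNA without sgRNAs (n = 2). TEAD4-edited bovine embryos received BE3 mRNA with a mix of TEAD4 sgRNAs and were collected as blastocysts on day 7.0 (n = 6), and control bovine blastocysts of that day received BE3 mRNA alone (n = 6). Every embryo thus carried the editor, and only the edited ones a guide RNA, so that an off-target action of the guides cannot be told apart from an action of TEAD4 loss. The sources used here do not give strain or breed, the number of embryos per sample or the rate of editing. Nothing says that samples came from separate injections, so the spread behind the p-values is that between samples and may be technical.

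Tight junctions are belts of claudin strands that seal the space between neighbouring epithelial cells. Occludin and tricellulin (Marveld2) shape these strands, tricellulin mainly where several cells meet, and scaffold proteins of the ZO family tie them to actin. In the preimplantation embryo the junctions assemble between the outer cells from compaction onward, and the sealed outer epithelium, the trophectoderm, then holds the fluid of the blastocoel. TEAD4 binds DNA and, with its co-activator YAP, acts at the end of the Hippo pathway in those outer cells.

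The claudins are tied to the scaffolds through their last residues, which is why the ends of their coding sequences are shown. These are the last 30 coding bases in mouse, 5′ to 3′, from GENCODE M21 transcripts (GRCm38), with the last codon pair and the stop codon in capitals.
Cldn4: cgctctgtccccgccagcaacTATGTGTAA
Cldn6: tccgaatatcccaccaagaatTATGTGTGA
Cldn7: aagtccaattcctccaaggaaTACGTGTGA
F11r: ttcaaacagacctcgtcgttcCTGGTGTGA
The claudin genes end in a tyrosine codon followed by a valine codon, the ending that PDZ domains of ZO proteins are known to bind. Of 21501 mouse genes with a complete coding sequence, 50 (0.233%) end this way, among them 14 of 23 claudin genes looked at. F11r does not share the tyrosine codon and ends in a leucine codon and a valine codon. The coding ends say nothing about the amount of RNA.

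Reads counted in genes came to 4386305 and 6109425 in edited mouse samples and to 4187826 and 3642907 in control mouse samples. In cattle there were fewer, 817329 to 2259064 in edited and 934078 to 2501592 in control samples. The 18S ribosomal RNA gene RN18S1 took 9.27% to 19.7% of the reads in edited bovine samples and 12.4% to 36.6% in control bovine samples, with the highest shares in control samples 6 (36.6%) and 3 (25.2%). Mouse Tead4 stood at 57.2 and 76.5 normalized reads in edited morulae, against 458 and 519 in control morulae (adjusted p = 5.37e-09, limma). Bovine TEAD4 ranged from 22.6 over a median of 37.5 to 65.6 normalized reads in edited blastocysts, against 61.2, 92.9 and 125 in control blastocysts. It averaged 42.6% of the control mean in edited blastocysts (log2 fold change -1.25 ± 0.25, SE), with an adjusted p of 0.235 from limma, 0.371 from edgeR and 0.00831 from DESeq2, and of 0.00831 to 0.773 over all settings tried. The labelled stages were read from their markers. In mouse 10 of 12 trophectoderm markers were tested, 6 of which fell in edited morulae and 0 rose. Over all genes tested 8.38% fell and 6.92% rose (limma). The summed level of the markers was 2095 to 2322 normalized reads in edited against 7783 to 8899 in control samples. In cattle 8 of 12 were tested and 0 passed (1 at an unadjusted p under 0.05, limma), where 0.0113% of all genes tested passed. Their sum was 9355 to 22356 in edited and 11831 to 22524 in control samples. That sum was mostly the keratin genes KRT8 and KRT18, at means of 9056 and 4791 in control samples, and CDX2 fell under the filter on low values. Of 10 markers of cumulus and granulosa cells, 3 were listed in mouse and 7 in cattle, and their sum in cattle was 12.3 to 48.2 in edited and 21.5 to 79.6 normalized reads in control samples. In mouse that sum, 2771 to 3413 in edited and 3319 to 3699 in control samples, was nearly all the gap junction gene Gja1, which embryos express themselves.

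In mouse morulae, Tjp3 and Cldn6 fell after editing of Tead4, and the other 7 genes did not pass the test. Tjp3 stood at 22.1% and Cldn6 at 27.8% of their control means. The scaffold gene Tjp1, occludin and F11r, by contrast, stood at 121%, 96.2% and 107% of theirs. The claudin genes Cldn4 and Cldn7 stood at 69.3% and 81.0%, and Cldn4 lay at the threshold (adjusted p = 0.0501). Thus 2 of the 9 genes were called lower and 0 higher (limma, Benjamini-Hochberg adjusted p under 0.05), where over all 11386 genes tested 8.38% were called lower, 6.92% higher and 15.3% in either direction. At an unadjusted p under 0.05 there were 3 of the 9, against 3260 of all 11386 genes (limma). Both edgeR and DESeq2 also called 2 lower and 0 higher, and over all genes they called 1619 and 1324. With each sample scaled to the same total, 1113 genes were higher and 684 lower, against 788 and 954, and 2 members were still lower. Without control library 2 none of the 9 was called, and 533 genes of the whole table were. The median log2 fold change was -0.30 over the 9 genes and -0.0049 over all genes tested.

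**Figure D1:**
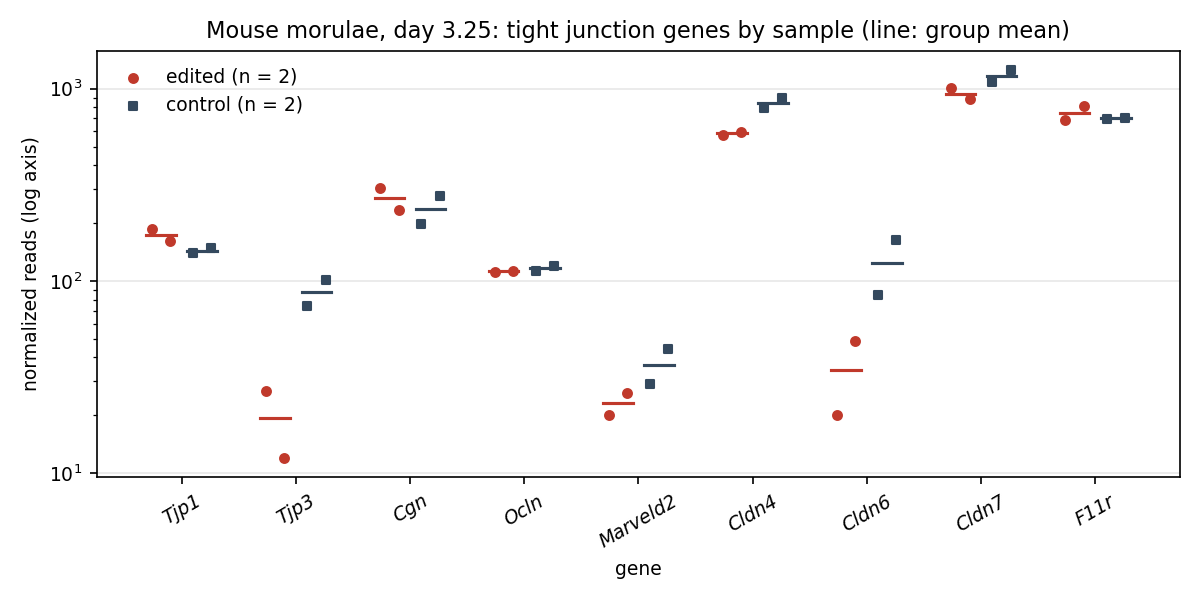
Normalized reads of the 9 tight junction genes in each mouse morula sample, on a log axis, with edited samples as red circles, control samples as dark squares and the group mean as a line (n = 2 per group). Tjp3 and Cldn6 show the widest gaps between the groups, with edited samples at 12.0 to 26.7 and at 20.0 to 48.9, against 73.8 to 101 and 84.9 to 163 in control samples.

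Tjp3 (chromosome 10, 81273207 to 81291581, minus strand, GRCm38) encodes ZO-3, a scaffold found in epithelial tight junctions. It had 26.7 and 12.0 normalized reads in edited morulae, against 73.8 and 101 in control morulae. These values rest on 28 and 17 reads in edited and 66 and 80 in control libraries. Both edited samples lay below both control samples, and the log2 fold change was -2.20 ± 0.43 (SE, n = 2 per group, adjusted p = 0.000854, limma). The authors' deposited table gives Tjp3 a log2 fold change of -2.20 and an adjusted p of 0.000982. The call was lost without control library 2, at -1.98 (adjusted p = 0.0601), and stood in the fits without each of the other libraries, at -2.74 to -1.66. The 3′ end of Apba3, on the plus strand, overlaps the 3′ end of Tjp3 by 40 bases (81273207 to 81273246), and since strand use in counting was not given, reads there cannot be assigned with certainty. Apba3, which encodes an adaptor protein, had 323 and 434 normalized reads in edited against 245 and 285 in control samples and did not pass (adjusted p = 0.124).

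Tjp1 (chromosome 7, 65296165 to 65527781, minus strand) encodes ZO-1, the best known scaffold of the junction. It had 186 and 162 normalized reads in edited morulae, against 139.7 and 148 in control morulae, so that the groups did not overlap although the difference did not pass. The log2 fold change of Tjp1 was 0.27, with a 95% interval from -0.24 to 0.78 (adjusted p = 0.511). Cgn (chromosome 3, 94760069 to 94786492, minus strand) encodes cingulin, which links the plaque to actomyosin and microtubules. It had 304 and 235 normalized reads in edited samples, against 197 and 277 in control samples, and these ranges overlap. The interval of its log2 fold change ran from -0.29 to 0.68. The plaque genes thus did not change by a like amount, since the interval of Tjp3 (-3.07 to -1.33) lay wholly below those of Tjp1 and Cgn. The intervals of Tjp1 and Cgn include 0, so their direction is not settled.

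Ocln (chromosome 13, 100496507 to 100552718, minus strand) had 112 and 113 normalized reads in edited morulae, against 113 and 120.2 in control morulae. Its change on the log2 scale was -0.05, with an interval from -0.61 to 0.51, and turned to 0.071 when each sample was scaled to the same total. Marveld2 lies on the same chromosome and strand (100595957 to 100616971) and encodes tricellulin. It had 20.0 and 26.2 normalized reads in edited and 29.1 and 44.3 in control samples. Its edited samples were both lower, but the interval from -1.57 to 0.32 leaves a wide range (adjusted p = 0.396).

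Cldn6 (chromosome 17, 23679249 to 23682446, plus strand) encodes a claudin of early embryonic epithelia. It had 20.0 and 48.9 normalized reads in edited morulae, against 84.9 and 163 in control morulae, from 21 and 69 reads in edited and 76 and 129 in control libraries. The log2 fold change of Cldn6 was -1.87 ± 0.40 (SE, n = 2 per group, adjusted p = 0.00194, limma), with edgeR at -1.81. Both groups varied widely, with a coefficient of variation of 59.3% in edited and 44.6% in control samples. Without control library 2 the value was -1.41 and the call was lost (adjusted p = 0.141), and without edited library 1 it was -1.25 and stood (adjusted p = 0.00607). The edited library with more Tjp3 had less Cldn6.

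Cldn4 (chromosome 5, 134945119 to 134946934, minus strand) encodes a claudin of simple epithelia. It had 573 and 597 normalized reads in edited morulae, against 792 and 897 in control morulae, with little spread inside each group. Its change of -0.53 ± 0.18 on the log2 scale (SE, n = 2 per group), with an interval from -0.90 to -0.15 without adjustment, missed the threshold in limma, while the adjusted p was 0.0381 to 0.169 over the settings that kept all libraries and 0.0263 to 0.391 over those that left out 1 library. The authors' deposited table gives Cldn4 an adjusted p of 0.0513. Cldn7 (chromosome 11, 69964779 to 69967885, plus strand), whose protein sits largely along the lateral membrane of epithelia, had 1007 and 880.3 normalized reads in edited and 1081 and 1249.7 in control samples. Its interval ran from -0.66 to 0.06. With the trend of level on transcript length removed from each sample, the log2 fold change was -0.46 for Cldn4 and -0.07 for Cldn7, against -2.26 for Tjp3 and -1.75 for Cldn6.

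F11r (chromosome 1, 171437535 to 171464603, plus strand) encodes JAM-A, an immunoglobulin-like adhesion molecule that helps to place the junction. It had 686 and 816 normalized reads in edited morulae, against 693 and 708 in control morulae, and the groups overlap. The interval of its log2 fold change, -0.28 to 0.47, leaves out a change as large as that of Tjp3 or Cldn6. Counted over the 9 genes, both edited samples lay below both controls for 6 genes and above them for 1, Tjp1, while 2 overlapped. For Ocln, 1 of the 6, the gap (112.7 in edited against 112.9 in control) was smaller than the value of 1 read. Among all tested genes 29.2% had edited samples wholly below and 28.6% wholly above the controls.

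Because transcript length differs between genes, levels were compared per kilobase of the longest annotated transcript, in normalized reads per kilobase. Cldn7 led, at 707 ± 67.0 in edited and 873 ± 89.6 in control morulae (SD, n = 2 each), which put it at the 95.8th percentile of 10688 tested genes in control morulae. Cldn4 followed at 322 ± 9.25 in edited and 465 ± 40.7 in control samples, and F11r at 298 ± 36.5 in edited and 278 ± 4.35 in control samples. In control morulae Cldn6 (76.5 ± 34.1) and Cgn (47.2 ± 11.3) came next and overlapped between samples. Tjp3 (28.9 ± 6.42) and Ocln (28.8 ± 1.27) overlapped too, and Tjp1 (20.4 ± 0.833) and Marveld2 (11.8 ± 3.46) closed the control order. In edited morulae Cldn6 stood at 21.2 ± 12.6 and Tjp3 at 6.41 ± 3.43. Tjp3 there lay below Marveld2 on average (7.43 ± 1.41), and both overlapped. Cldn4 and F11r, apart in control samples, overlapped in edited ones.

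The fall of Tjp3 and Cldn6 stood beside that of 6 of 10 tested trophectoderm markers. Gata3, a transcription factor of that lineage, had 257 and 187 normalized reads in edited against 1012 and 1013 in control samples, and the keratin gene Krt8 had 719 and 994 against 2793 and 2878. Krt18, its partner keratin, had 239 and 89.3 in edited and 1643 and 2516 in control samples, and the homeobox gene Cdx2 14.3 and 11.3 in edited against 54.8 and 58.2 in control samples. The 4 tested trophectoderm markers that did not pass were Eomes and Tfap2c, at 141% and 115% of their control means, and Krt7 and Tfap2a, at 60.3% and 19.1%. Pou5f1, a pluripotency factor, rose to 1133 and 929.9 in edited against 344 and 436 in control samples, while Nanog, at 738 and 1884 in edited and 1618 and 1918 in control samples, did not pass. Of 8 tested inner cell mass markers 3 rose and 0 fell in mouse, while in cattle 5 were tested and 0 passed. Over all genes tested limma called 8.38% lower and 6.92% higher in mouse. In cattle it called 0.0113%, so that 0 of 5 is near the background. The part of the marker genes in the values of the junction genes was not tested. In RNA of whole embryos, fewer cells of a type and less RNA per cell cannot be told apart.

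Other genes of the junction, from a list of 56 symbols, fell in edited mouse morulae in 6 of 30 tested cases (20 of the symbols name claudins, and 2 genes stand under 2 symbols each). None rose (limma), 24 did not pass, and the median log2 fold change was -0.11, where over all genes tested 8.38% were called lower and the median was -0.0049. At an unadjusted p under 0.05 there were 10 of the 30, Pard3 among them with a higher value, against 3260 of all 11386 genes (limma). Of the 30, edgeR called 6 and DESeq2 5, all lower, where over all genes they called 1619 and 1324 in either direction. Of the 6 genes 5 are described here. Among the plaque and polarity genes, Cgnl1, which encodes the cingulin relative paracingulin, had 9.53 and 17.0 in edited against 48.1 and 55.7 normalized reads in control samples (log2 fold change -1.94 ± 0.48, adjusted p = 0.00672). Mpp5, which encodes the Crumbs complex scaffold PALS1, had 35.3 and 31.2 in edited against 60.3 and 89.8 in control samples (-1.13 ± 0.37, adjusted p = 0.0388).

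Of the other membrane proteins, 2 of 7 tested fell, where 8.38% of all genes tested were called lower. Cxadr, which encodes an adhesion molecule known as the coxsackievirus and adenovirus receptor, had 159 and 156 normalized reads in edited against 358 and 328 in control morulae (log2 fold change -1.11 ± 0.22, adjusted p = 0.00123). Crb3, which encodes the membrane anchor of the Crumbs polarity complex, had 248 and 235 in edited against 476 and 468 in control samples (-0.97 ± 0.21, adjusted p = 0.00206). Ybx3, which encodes the Y-box factor ZONAB that binds ZO-1, had 1454 and 1585 in edited against 2579 and 2718 in control samples (-0.80 ± 0.16, adjusted p = 0.00125), and was the 1 gene called among 8 linked to junction signalling and traffic. The calls were fragile to the number of controls, since of the 5 only Ybx3 passed without control library 1 and only Cxadr without control library 2, and Mpp5 also missed the threshold with DESeq2, with equal totals and with no filter on low values (adjusted p up to 0.383 over its alternatives).

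**Figure D2:**
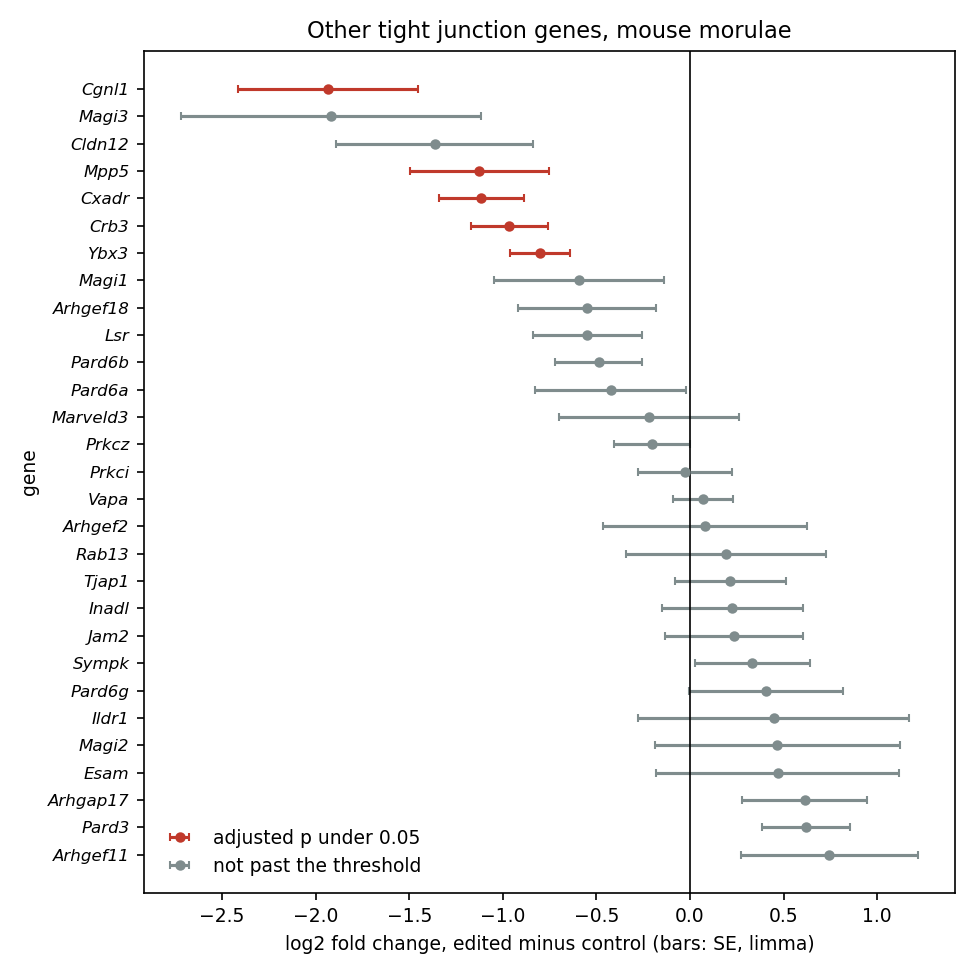
Log2 fold change (edited minus control) of 29 other tight junction genes in mouse morulae with its standard error, from limma, sorted by size. Red points passed an adjusted p of 0.05 and lie between -1.94 and -0.80, and no gene with a positive value passed.

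Of 20 other claudin genes only Cldn12 was abundant enough to be tested in mouse, with 12.4 and 11.3 normalized reads in edited and 30.2 and 34.2 in control samples (adjusted p = 0.0797). Cldn3, Cldn9 and Cldn19 were listed but fell under the filter. The partitioning genes did not pass, with log2 fold changes of 0.62 for Pard3 (adjusted p = 0.0757), -0.49 for Pard6b, -0.03 for Prkci and -0.20 for Prkcz. Pard3 passed, higher, when each sample was scaled to the same total, where the median change over all genes was 0.12 on the log2 scale, and 5 other junction genes then remained lower.

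In bovine blastocysts none of the 9 genes passed the test after editing of TEAD4. Limma, edgeR and DESeq2 each called 0 of 9, and none had an unadjusted p under 0.05 with any of them. Over all 8884 genes tested limma called 0.0113%, which is 1 gene, a lower one (0% higher), and 522 had an unadjusted p under 0.05, while edgeR called 0.0113% and DESeq2 0.0563%. The count of 0 of 9 is thus near the background. Log2 fold changes of the 9 genes ran from -0.60 to 0.34 with a median of 0.16, against a median of 0.01 over all genes, and edited and control samples overlapped for all 9. Among all genes tested, 0.158% had edited samples wholly below and 0.09% wholly above the controls.

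**Figure D3:**
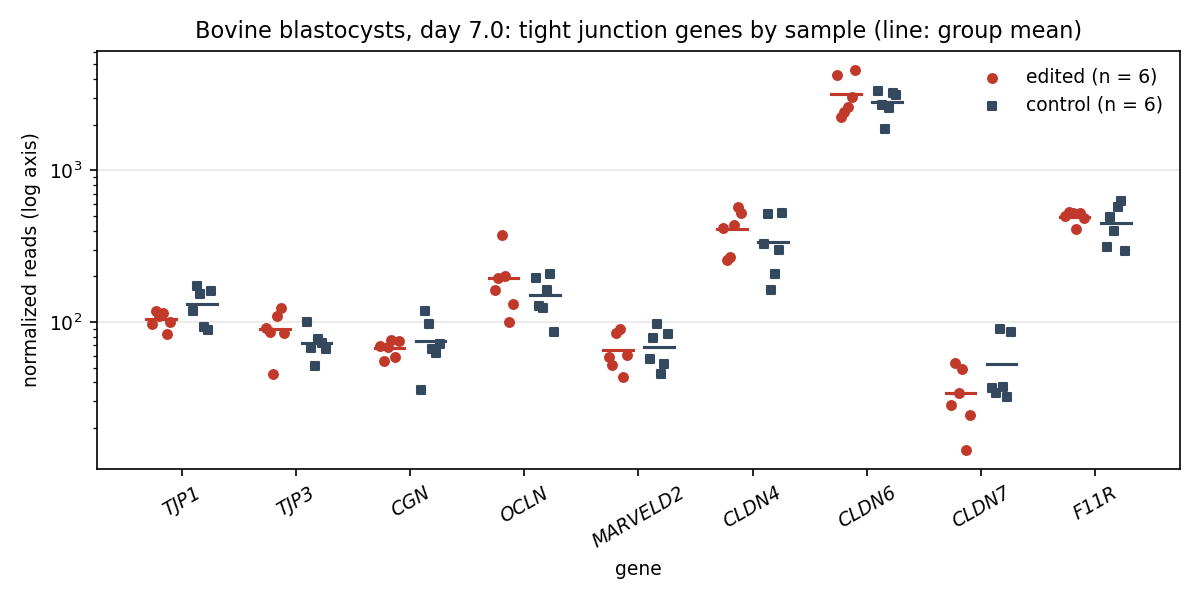
Normalized reads of the 9 tight junction genes in each bovine blastocyst sample, on a log axis, with edited samples as red circles, control samples as dark squares and the group mean as a line (n = 6 per group). Edited and control samples overlap for every gene, and CLDN7 has 2 high control samples at 86.2 and 90.4.

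CLDN6 had the most reads of the 9 in every bovine sample, with no correction for length. It ranged from 2234 over a median of 2828 to 4598 normalized reads in edited blastocysts, against 1879, 2918 and 3338 in control blastocysts. The log2 fold change of CLDN6 was 0.16, with an interval from -0.27 to 0.58, which leaves out the fall of Cldn6 seen in mouse morulae. TNFRSF12A overlaps CLDN6 in ARS-UCD2.0, a later assembly than the one the authors used, and had 24.1 to 131 normalized reads in edited and 49.1 to 139 in control samples, a small part of the CLDN6 level. CLDN4 ranged from 256 over a median of 426 to 575 in edited, against 163, 313 and 521 in control blastocysts (log2 fold change 0.34, interval from -0.24 to 0.92).

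CLDN7 had the largest difference of the 9 genes in cattle, from 14.3 over a median of 31.2 to 53.7 normalized reads in edited blastocysts, against 31.9, 36.9 and 90.4 in control blastocysts. The log2 fold change was -0.60 ± 0.33 (SE, n = 6 per group) with an interval from -1.29 to 0.10 (unadjusted p = 0.0881, adjusted p = 0.792, limma). Control samples 3 and 6, at 90.4 and 86.2, stood apart from the other controls, at 31.9 to 37.0, and these are the libraries with the highest share of RN18S1. Without both, a setting chosen after seeing the data, the value was -0.16. The part of the RN18S1 share in the level of CLDN7 was not tested.

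The scaffold genes did not pass either. TJP1 ranged from 83.2 over a median of 105 to 119 in edited, against 89.0, 135 and 172 normalized reads in control blastocysts, with a coefficient of variation of 12.5% in edited and 27.4% in control samples. Its log2 fold change was -0.29, with an interval from -0.70 to 0.12, and -0.14 without control samples 3 and 6. TJP3 ranged from 45.3 over a median of 88.3 to 124 in edited, against 51.0, 70.4 and 99.9 in control samples, a log2 fold change of 0.27 with an interval from -0.21 to 0.75. That interval leaves out the fall of Tjp3 in mouse morulae. CGN ranged from 55.6 over 68.6 to 76.2 in edited, against 35.5, 68.9 and 118 in control samples, with nearly equal medians and an interval from -0.57 to 0.43.

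OCLN ranged from 99.3 over a median of 178 to 375 normalized reads in edited blastocysts, against 86.2, 146 and 207 in control blastocysts. Its log2 fold change of 0.29 (interval from -0.28 to 0.87) became 0.08 without edited sample 3, the highest one. MARVELD2 ranged from 43.0 over 59.7 to 90.3 in edited, against 45.6, 67.5 and 96.2 in control samples (interval from -0.56 to 0.41). F11R ranged from 408 over 508 to 534 in edited, against 293, 444 and 628 in control samples, with a coefficient of variation of 9.21% in edited and 30.6% in control samples. Its interval ran from -0.21 to 0.59, and TSTD1, which overlaps it in ARS-UCD2.0, had 68.2 to 126 normalized reads in edited and 84.4 to 154 in control samples.

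Of the other junction genes 24 were tested in cattle and 0 were called by limma, edgeR or DESeq2. At an unadjusted p under 0.05 there was 1 by each tool, where limma had 522 of all 8884 genes tested. The 1 gene by limma was IGSF5, which encodes a junctional adhesion molecule relative, at a mean of 36.1 in edited and 22.2 normalized reads in control blastocysts (log2 fold change 0.65, unadjusted p = 0.0353), named here after its value was seen. On the log2 scale CRB3 stood at 0.07, CXADR at -0.43 and MPP5 at -0.34. CGNL1, with 2.21 in edited and 5.35 in control samples on average, and YBX3 fell under the filter on low values. The mean profile of the 9 genes was nearly flat over the 12 bovine samples, from -0.19 to 0.20 on the log2 scale. The genes closest to it were TMBIM6, SON and UPF2, at a root-mean-square distance of 0.13, 0.14 and 0.14 over 12 samples, against a median of 0.37 over 2335 genes with a mean of at least 100. The members themselves lay 0.27 (TJP1) to 0.66 (CLDN7) from their own mean profile.

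**Figure D4:**
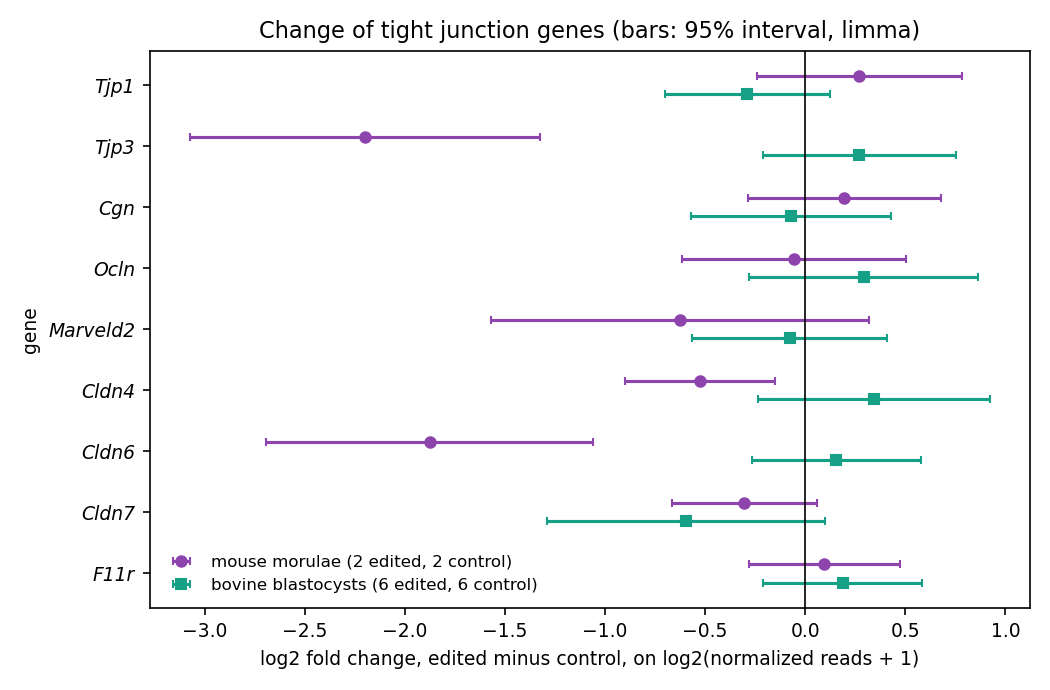
Log2 fold change (edited minus control) of each tight junction gene with its 95% interval from limma, mouse morulae as purple circles and bovine blastocysts as green squares. The intervals, which are not adjusted for the number of genes, lie below 0 for Tjp3, Cldn6 and Cldn4 in mouse and include 0 for all 9 genes in cattle.

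The response of Tjp3 and of Cldn6 differed between the species. The difference of the log2 fold changes, mouse minus bovine, was -2.47 ± 0.48 (SE) for Tjp3 (adjusted p = 0.0013) and -2.03 ± 0.45 for Cldn6 (adjusted p = 0.00437), with p-values adjusted over 7073 genes tested in both tables. Without mouse control library 2 neither passed, at -2.25 (adjusted p = 0.062) for Tjp3 and -1.56 (0.149) for Cldn6. Of those genes 6.07% differed at this threshold, 3.69% with the lower value in mouse. Cldn4 differed by -0.87 ± 0.33 and did not pass (adjusted p = 0.112), and the other 6 genes had adjusted p-values of 0.305 to 0.88. Among the other junction genes named above, Crb3 differed by -1.04 ± 0.31 (adjusted p = 0.0357), while Cxadr (adjusted p = 0.298) did not pass. Species, stage, guide RNAs and the remaining TEAD4 transcript, 13.7% of the control mean in mouse and 42.6% in cattle, differ together and cannot be told apart. The difference was computed from fold changes made within each table, since the tables were normalized separately.

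The make-up of the claudin reads also differed between the embryos, as shares of the summed reads of claudins 4, 6 and 7 within a sample. In edited mouse morulae Cldn6 took 1.25% (95% Wilson interval 0.82 to 1.91) and 3.20% (2.54 to 4.04) of these reads, against 4.34% (3.48 to 5.40) and 7.06% (5.98 to 8.33) in control morulae. Cldn7 took 62.9% and 57.7% in edited and 55.2% and 54.1% in control morulae, the rest being Cldn4. In bovine blastocysts CLDN6 took 83.7% to 90.5% in edited and 83.2% to 91.3% in control samples, and CLDN7 0.397% to 2.11% in edited and 0.898% to 4.24% in control samples. These shares were set side by side after the values were seen and not tested, are not divided by length, for want of bovine transcript lengths, and the intervals cover counting error only. Stage and species differ together here too.

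**Figure D5:**
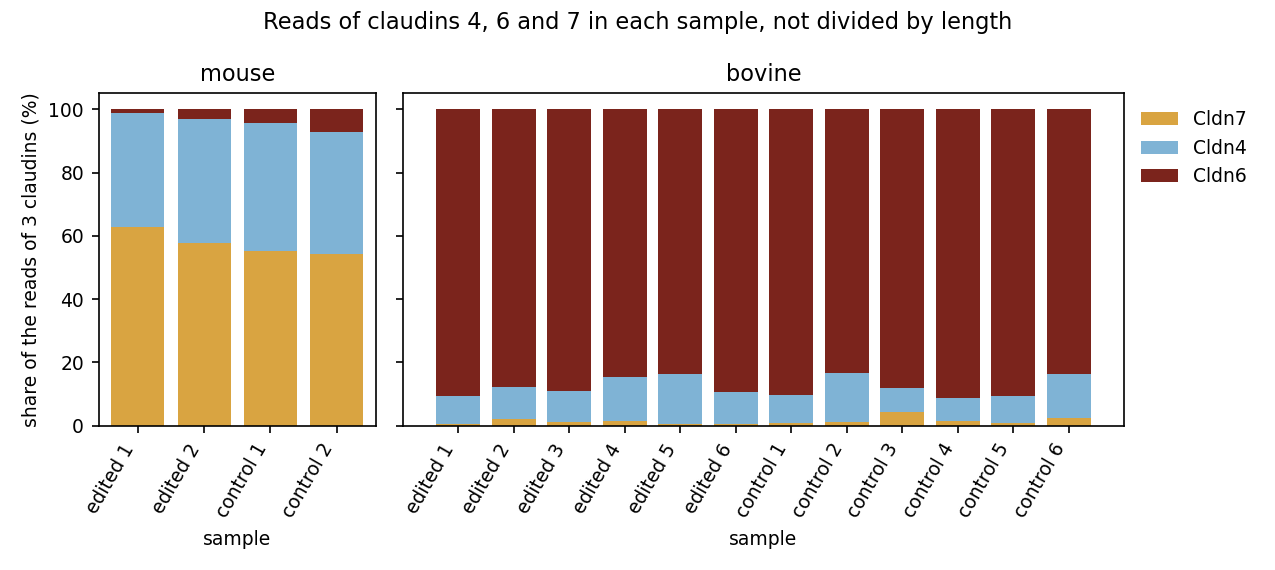
Share of the summed reads of Cldn4, Cldn6 and Cldn7 taken by each gene, in percent, for every mouse sample (left) and bovine sample (right), not divided by transcript length. Cldn6 takes 1.25% to 7.06% in the mouse samples and 83.2% to 91.3% in the bovine samples.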

How the data were processed

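Smart-seq2 libraries were primed with oligo(dT), per the labels' protocols. Trimmomatic, HISAT2, featureCounts, DESeq2 and the builds mm10 and ARS-UCD1.2 are named in the submitters' processing notes. The sources used here do not give the annotation, strand setting or multi-mapping rules.

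The deposited signal values, 1 table per species, are reads per gene divided by the authors' size factor of each sample, per the file headers. Every value was a whole multiple of that of 1 read (100% within 0.05 reads), which gave reads and depths. A count of 3 reads equals 2.13 to 3.79 normalized reads in mouse and 1.71 to 5.56 in cattle, for counting error only. The log2 fold changes and adjusted p-values deposited by the authors were only quoted, and their score was not used.

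Genes averaging at least 10 normalized reads (11386 in mouse, 8884 in cattle, all 9 members among them) were put on the scale log2(value + 1), which makes changes of low genes smaller than they are, and tested two-sided with limma 3.58.1 (trend option, R 4.3.3), edited minus control. Benjamini-Hochberg adjustment ran over all of them, with a threshold of 0.05, and the scripts were tested on simulated data. Alternatives were edgeR 4.0.16 and DESeq2 1.42.0 on the recovered reads, pseudocounts of 0.5 and 5, other filters and scalings, a robust fit, a length correction, a replicate block and libraries left out. The species difference used Satterthwaite degrees of freedom.

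Groups and replicate numbers come from the titles. Of the mouse names 89.1% matched GENCODE M21 and of the bovine names 95.1% ARS-UCD2.0. Members, lists and tests were chosen with earlier results of these data known. Named genes were the 9 members, TEAD4, each other junction gene called (up to 10 per species), 6 lineage markers and the 3 genes closest in pattern in cattle, and 1 junction gene so chosen is counted but not reported here.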

Additional observations from a re-analysis of the deposited data

Results flagged for a closer look

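OCLN in edited bovine sample 3, at 375 normalized reads, stood apart from the other 5 edited samples, of which the next was at 201. The gap was 0.632 of the group's range, above Dixon's 95% critical value for 6 samples. It was taken on normalized reads, not on the log2 scale of the other tests, and the flag may depend on that scale. This was the 1 group flagged among 18 looked at, where chance flags about 1 in 20 for normally distributed values. NANOG was at 226 normalized reads in the same library and at 0.648 to 56.8 in the other edited samples. The other tested inner cell mass markers were not high there. KLF4 (41.0) and ESRRB (115) were at their lowest among the edited samples. POU5F1 (310) and SOX2 (18.4) lay near their edited medians of 302 and 17.5. Control sample 3, with the most NANOG of the controls (172), had OCLN at 124, below the control median of 146, and the part of lineage make-up in the OCLN value was not tested. The log2 fold change of Tjp3 differed between mouse and cattle by -2.47 (mouse minus bovine), by a test of the difference. That of Cldn6 differed by -2.03 by the same test. Without mouse control library 2 neither difference passed, at -2.25 for Tjp3 and -1.56 for Cldn6.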

How the results depend on the processing

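The bovine counts of called members, 0 higher and 0 lower, held in every setting run. In mouse 2 members were lower in each setting except where Cldn4 joined them, and over the fits without 1 library the number was 0 to 3. Over those fits the mouse genes called numbered 533 to 2573, against 1742, and the other junction genes called 1 to 9, against 6. In cattle DESeq2 called 5 genes, against 1. With equal totals without the top feature 1277 mouse genes were higher and 611 lower, against 788 and 954. The species difference passed for 2 genes in each setting run, scalings, filters, block and controls 3 and 6 left out among them, most of them chosen after seeing the data, except that over the fits without 1 library it passed for 0 to 2. That of F11r turned to 0.11 without the top feature, 0.032 without mouse edited sample 1, 0.019 without bovine control 6 and 0.076 without controls 3 and 6, where that of Cldn7 turned to -0.15. Signs turned only for genes whose value in the main fit did not pass. Ocln turned to 0.071 with equal totals and 0.12 without the top feature in the total. CGN turned to 0.049 and MARVELD2 to 0.043 with equal totals, and to 0.049 and 0.13 without controls 3 and 6. GATA3 turned to 0.11 with equal totals, 0.026 with edgeR, 0.0086 with DESeq2 and 0.012 without controls 3 and 6. Without 1 library the values ran from -0.050 to 0.44 for Cgn, -0.029 to 0.22 for F11r, -1.25 to 0.10 for Nanog, -0.26 to 0.078 for CGN, -0.18 to 0.029 for MARVELD2, -0.12 to 0.14 for GATA3, -0.042 to 0.27 for KRT18 and -0.80 to 0.80 for NANOG. The cause was not tested. The titles link edited and control samples only by a replicate number, and what same-numbered samples share is not given. Deviations of same-numbered samples correlated at 0.106 in mouse and -0.193 to 0.335 in cattle, where 1 of 6 correlated best with its own number. With 2 samples per group the mouse value is the same for both numbers by construction, so it cannot tell whether they share a batch. With the replicate block 2 mouse members were lower and 1816 mouse genes were called, and in cattle 0 members and 1 gene. Tjp3, Cldn6 and Marveld2 rest on 17 to 129 mouse reads per library, which limits their precision.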
